A study of Mus musculus with 10 samples.

Results

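Transforming growth factor beta (TGF-beta) signalling was examined in mouse liver through 9 genes: the ligand genes Tgfb1, Tgfb2 and Tgfb3, the receptor genes Tgfbr1 and Tgfbr2, the intracellular Smad3 and Smad7, and the matricellular targets Ccn1 and Ccn2. They were taken from a fixed list of symbols, each matched to 1 NCBI Gene number among the 27179 genes of the count table, and all 9 passed the filter on low counts. All mice were male C57BL/6 animals that had eaten a diet producing nonalcoholic steatohepatitis (NASH) for 12 weeks, and total RNA of whole liver was sequenced. The 5 LKO mice carried floxed Lpcat3 alleles and a Cre recombinase driven by the albumin promoter (Lpcat3f/f Albumin-Cre), which is active in hepatocytes. The 5 control mice carried the same floxed alleles without Cre (Lpcat3f/f) and ate the same diet, so no group on another diet and none with wild-type Lpcat3 alleles enters the comparison. The sources used here state no ages. Each mouse gave 1 library, named below by group and replicate number. Cre acts in hepatocytes, whereas the RNA came from all cells of the liver.

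TGF-beta is secreted as a latent dimer that is held in the matrix by latent TGF-beta binding proteins and freed by integrins, thrombospondin and proteases. The active ligand binds the type II receptor (Tgfbr2), which recruits and phosphorylates the type I receptor (Tgfbr1), which in turn phosphorylates Smad2 and Smad3, and these enter the nucleus with Smad4. Smad7 is induced by the pathway and inhibits it. In injured liver the pathway is known above all for turning hepatic stellate cells into matrix-producing myofibroblasts, and Ccn2, or connective tissue growth factor, is among its best known targets there.

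Sequencing depth lay between 26914124 counts in control 4 and 46727182 counts in control 5. Lpcat3, the deleted gene, fell to 31.3 ± 4.65 CPM in LKO, against 109 ± 13.3 CPM in control (SD, n = 5 each), a log2 fold change of -1.79 by the quasi-likelihood test of edgeR (adjusted p = 0.000151). CPM are read counts scaled by library size with TMM factors, and p-values were adjusted over all genes tested by the Benjamini-Hochberg method. Albumin (Alb), the defining hepatocyte product, stood at 23063 to 34090 CPM in LKO and at 27298 to 41706 CPM in control. The first principal component of log2 CPM took up 56.8% of the variance and placed the LKO libraries between -8 and 82.3, with LKO 3 at the upper end. The controls other than control 4 had scores between -52.7 and -30.1, and control 4 had 30.2. Results are therefore also given without control 4 and without LKO 3. Whether mice shared a litter or cage is not stated, so the p-values reflect only how these samples vary.

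Transcripts of all 3 ligands and of Tgfbr2 stood higher in LKO livers on average, most of all Tgfb3, whose LKO libraries all lay above every control. Ccn2 averaged higher and Ccn1 lower, and each overlapped widely between groups. None of the 9 genes passed the test with all 10 libraries: 0 had an adjusted p under 0.05, where 0.0657% of the 15226 genes tested did (edgeR). At an unadjusted p under 0.05 there were 4 of 9, all higher in LKO, against 12.8% of all genes tested that were higher at that level, 9.5% that were lower and 22.3% in either direction. DESeq2 called 1 of the 9 as higher, Tgfb3, and of all genes with an adjusted p it called 4.17% as higher and 3.26% as lower. Limma voom with quality weights called 3 of the 9 as higher, and of all genes 10% as higher and 6.11% as lower. These weights let libraries that stand apart count for less, so its calls do not rest on equally weighted libraries. The size of the weights was not examined. Of the 9, 8 had a log2 fold change above 0, as had 49.5% of all genes tested, and their median was 0.31, against -0.00 over all genes.

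**Figure D1:**
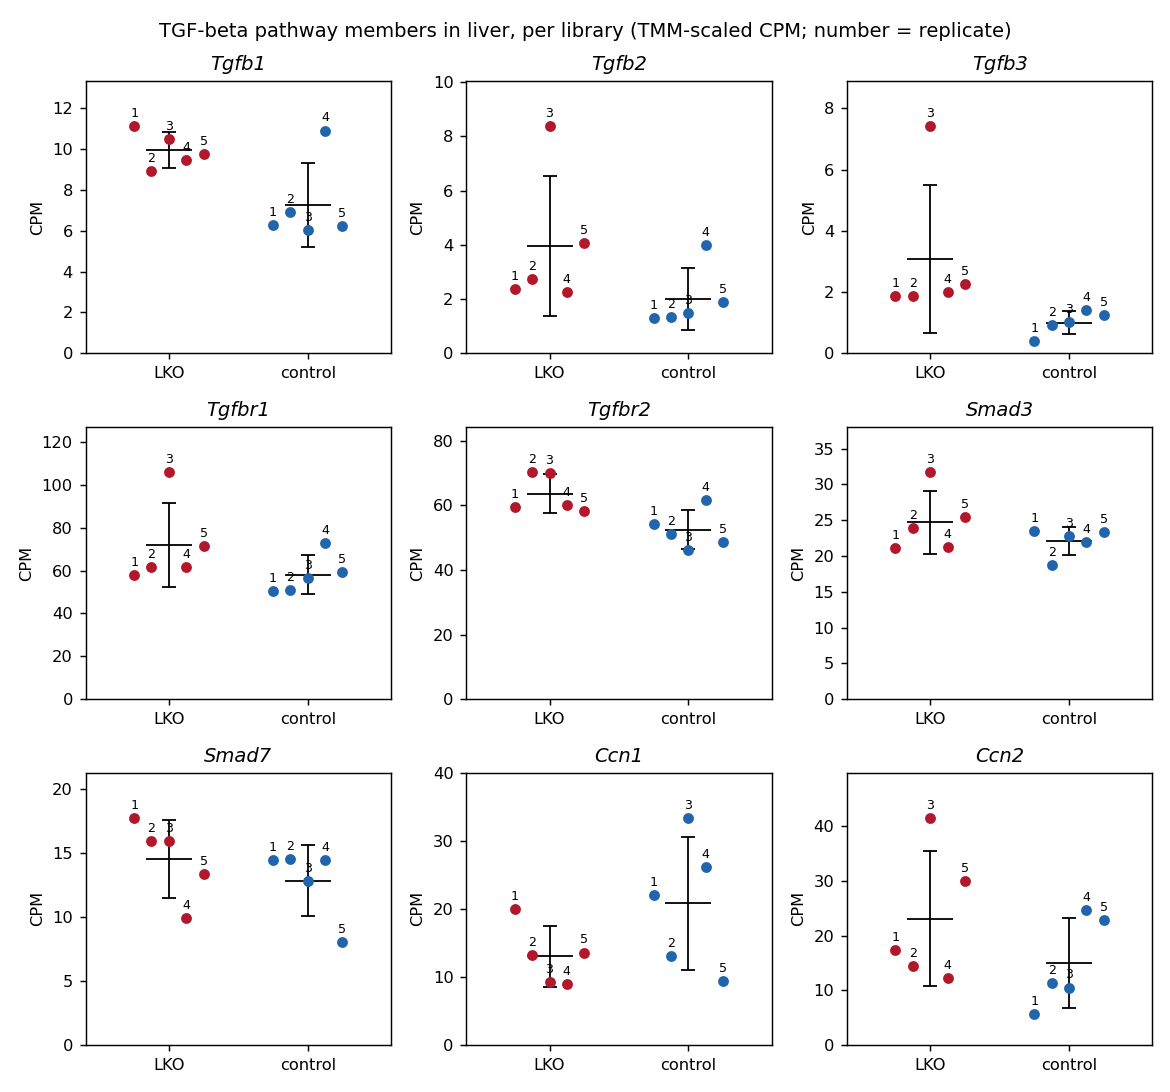
TMM-scaled CPM (vertical axes, from 0) of the 9 genes in the 5 LKO libraries (red, left) and the 5 control libraries (blue, right). Numbers are replicates, and bars give mean and SD. Tgfb3 has no overlap between groups, with LKO 3 at 7.41 CPM, while control 4 lies among or above the LKO libraries for Tgfb1 and Tgfb2.

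The sequence before the transcription start is shown for 2 ligand genes and for Ccn1, because these promoters differ in the elements they hold. RefSeq tables of GRCm38.p6 held a promoter for 6 of the 9 genes, with none matched for Tgfb3, Smad7 or Ccn2. Each run is 250 bases that end just before the start, written 5′ to 3′ on the gene's strand. Capitals mark matches on either strand to 6 motifs. Of these, TATAAA is the TATA box and CAGAC is a box that Smad proteins bind. TEAD factors, the partners of YAP, bind GGAATG. The core of cyclic AMP response elements, called the CRE core here, was searched as TGACG. An E-box was searched as CACGTG and a GC box, a site of Sp1, as GGGCGG. In Ccn1 a TATA box and a GC box are adjacent and appear as 1 run of capitals. The regions are chr7:25686752-25687001 on the plus strand for Tgfb1, chr1:186705990-186706239 on the minus strand for Tgfb2 and chr3:145649986-145650235 on the minus strand for Ccn1.
Tgfb1: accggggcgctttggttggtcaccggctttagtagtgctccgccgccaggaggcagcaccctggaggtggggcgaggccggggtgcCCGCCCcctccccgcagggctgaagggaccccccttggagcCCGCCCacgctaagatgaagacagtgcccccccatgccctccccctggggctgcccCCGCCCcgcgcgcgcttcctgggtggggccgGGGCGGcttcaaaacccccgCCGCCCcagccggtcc
Tgfb2: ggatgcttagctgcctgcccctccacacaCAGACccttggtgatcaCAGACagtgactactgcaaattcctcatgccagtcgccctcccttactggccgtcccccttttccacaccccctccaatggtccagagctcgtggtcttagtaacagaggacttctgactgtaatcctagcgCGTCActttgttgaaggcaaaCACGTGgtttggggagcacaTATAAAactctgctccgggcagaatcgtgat
Ccn1: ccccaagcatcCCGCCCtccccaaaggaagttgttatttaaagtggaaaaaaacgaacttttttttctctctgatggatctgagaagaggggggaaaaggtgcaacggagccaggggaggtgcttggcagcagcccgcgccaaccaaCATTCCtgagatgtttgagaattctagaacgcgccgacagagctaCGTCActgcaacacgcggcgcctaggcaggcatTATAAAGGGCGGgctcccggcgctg

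The Tgfb1 window held 5 GC boxes and none of the other elements, and 75.2% of its bases were G or C. The Tgfb2 window, at 53.6% G or C, held a TATA box starting 31 bases before the start, an E-box at 51, a CRE core at 72 and Smad boxes at 204 and 221. The Ccn1 window held a TATA box at 25 bases, a CRE core at 58, a TEAD site at 103 and GC boxes at 19 and 239. Among all 32851 promoters of the table, windows of the same 250 bases held a TATA box in 12.4%, a Smad box in 42.2%, a TEAD site in 12.6%, a CRE core in 17.8%, an E-box in 6.02% and a GC box in 32.7%. Such matches describe the letters alone, and binding was not measured.

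Tgfb1 (NCBI Gene 21803), the isoform of platelets and macrophages and the main fibrogenic ligand of liver, had 11.1, 8.93, 10.5, 9.44 and 9.75 CPM in LKO 1 to 5, against 6.3, 6.92, 6.04, 10.9 and 6.21 CPM in control 1 to 5. The 5 LKO libraries lay above 4 of the 5 controls, and control 4 stood within the LKO range. The means were 9.96 ± 0.879 CPM in LKO and 7.28 ± 2.07 CPM in control (SD, n = 5 each), a log2 fold change of 0.45 (SE 0.16, 95% interval 0.09 to 0.81; edgeR adjusted p = 0.158). Without control 4 the log2 fold change was 0.64 and Tgfb1 passed (edgeR adjusted p = 0.00658), as it did with limma voom and quality weights (0.56, adjusted p = 0.0122). DESeq2 on all libraries gave 0.44 with an adjusted p of 0.094.

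Tgfb2 (NCBI Gene 21808), an isoform known from epithelia and stroma, had 2.36, 2.73, 8.37, 2.27 and 4.07 CPM in LKO 1 to 5. In control 1 to 5 it had 1.32, 1.33, 1.48, 4.0 and 1.91 CPM. Control 4 again stood among the LKO libraries, and LKO 3 was the highest library. The means were 3.96 ± 2.57 CPM in LKO and 2.01 ± 1.14 CPM in control, a log2 fold change of 0.97 (SE 0.43, 95% interval 0.02 to 1.93; edgeR adjusted p = 0.217). Its size leaned on single libraries, with 0.50 without LKO 3 (edgeR adjusted p = 0.471) and 1.38 without control 4 (edgeR adjusted p = 0.0425).

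Tgfb3 (NCBI Gene 21809), an isoform of mesenchymal cells, had 1.88, 1.88, 7.41, 1.99 and 2.25 CPM in LKO 1 to 5, against 0.415, 0.913, 1.01, 1.42 and 1.26 CPM in control 1 to 5. Every LKO library lay above every control, a separation found in the same direction for 1.72% of all genes tested, and 4 of the 5 LKO libraries lay close together under LKO 3. Counts behind these values were small, from 11 in control 1 to 277 in LKO 3. The means were 3.08 ± 2.42 CPM in LKO and 1.0 ± 0.384 CPM in control, a log2 fold change of 1.61 (SE 0.46, 95% interval 0.60 to 2.61; edgeR adjusted p = 0.118). DESeq2 gave the same log2 fold change and an adjusted p of 0.0132. Without LKO 3 the log2 fold change was 0.98 (edgeR adjusted p = 0.158), and without control 4 it was 1.75 (edgeR adjusted p = 0.0409).

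Tgfbr2 (NCBI Gene 21813), the ligand-binding type II receptor, had 59.5, 70.3, 70.0, 60.2 and 58.4 CPM in LKO 1 to 5. In control 1 to 5 it had 54.4, 51.3, 46.1, 61.8 and 48.8 CPM. All LKO libraries lay above control 1, 2, 3 and 5, and 2 of them lay above control 4. The means were 63.7 ± 5.93 CPM in LKO and 52.5 ± 6.06 CPM in control, a log2 fold change of 0.28 (SE 0.10, 95% interval 0.07 to 0.49; edgeR adjusted p = 0.148). The gene passed without control 4 (0.34, edgeR adjusted p = 0.0287) and with limma voom and quality weights (0.33, adjusted p = 0.0256). Tgfbr1 (NCBI Gene 21812), the signalling type I receptor kinase, had 58.2, 61.7, 106, 61.9 and 71.7 CPM in LKO 1 to 5, against 50.7, 50.8, 56.4, 73.0 and 59.5 CPM in control 1 to 5. LKO 3 stood far above the other libraries, and the rest of the LKO group overlapped the controls. Its means were 71.8 ± 19.6 CPM in LKO and 58.1 ± 9.13 CPM in control (log2 fold change 0.31, 95% interval -0.07 to 0.68; edgeR adjusted p = 0.299), and without LKO 3 the log2 fold change was 0.12 (edgeR adjusted p = 0.618). Of the 9 genes, Tgfb1, Tgfb2, Tgfb3 and Tgfbr2 had LKO libraries that all lay above all controls but control 4, as had 11.1% of all genes tested. Leaving out control 4, edgeR called these 4 as higher in LKO, where it called 10.2% of 15327 genes as higher and 4.75% as lower. Without both control 4 and LKO 3 it also called 4 (9.87% of 15150 genes), with log2 fold changes of 0.62 for Tgfb1, 0.90 for Tgfb2, 1.12 for Tgfb3 and 0.31 for Tgfbr2. Dropping a control that lies with the LKO libraries widens the difference by itself, so these calls are no separate evidence.

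**Figure D2:**
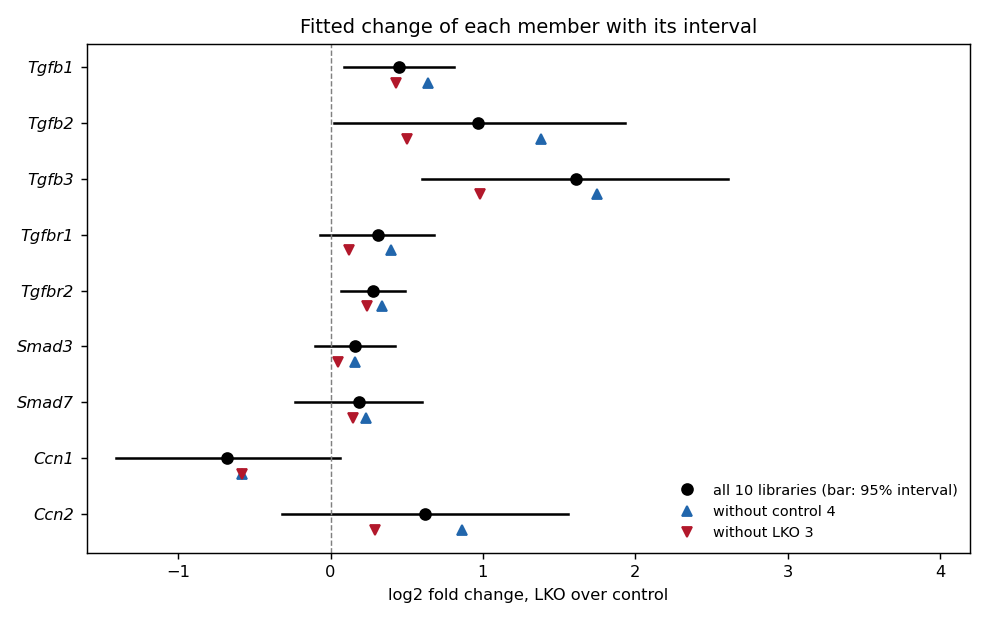
Log2 fold change of LKO over control (horizontal axis) for the 9 genes from the edgeR fit. Black points and bars give the value and its 95% interval with all 10 libraries, blue triangles the value without control 4 and red triangles the value without LKO 3. The intervals of Tgfb1, Tgfb2, Tgfb3 and Tgfbr2 lie above 0 before adjustment, and the value of Tgfb3 is 0.98 without LKO 3.

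The intracellular genes had the log2 fold changes nearest to 0 of the 9. Smad3 (NCBI Gene 17127), which carries the signal to the nucleus, had 21.1, 23.9, 31.7, 21.2 and 25.5 CPM in LKO 1 to 5 and 23.5, 18.8, 22.8, 22.0 and 23.3 CPM in control 1 to 5. The groups overlapped, with LKO 3 highest and control 2 lowest. Its log2 fold change was 0.16 (SE 0.12, 95% interval -0.10 to 0.42; edgeR adjusted p = 0.432), which leaves room for a rise of up to that upper bound, and it was 0.05 without LKO 3. Smad7 (NCBI Gene 17131), the inhibitory Smad, had 17.7, 15.9, 15.9, 9.88 and 13.3 CPM in LKO 1 to 5 and 14.4, 14.5, 12.8, 14.4 and 8.0 CPM in control 1 to 5. Here the low libraries were LKO 4 and control 5, and control 4 stood with the other controls. The log2 fold change was 0.19 (SE 0.19, 95% interval -0.23 to 0.60; edgeR adjusted p = 0.578), and it was 0.05 without control 5.

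Ccn2 averaged higher in LKO and Ccn1 lower, but neither passed, both 95% intervals include 0, and the difference between them was not tested. Ccn2 (NCBI Gene 14219), whose product promotes matrix production, had 17.4, 14.4, 41.5, 12.2 and 30.0 CPM in LKO 1 to 5, against 5.74, 11.4, 10.5, 24.6 and 22.8 CPM in control 1 to 5. LKO 3 and LKO 5 lay above every control, and the other LKO libraries fell between control 2 and control 5. Ccn2 averaged 23.1 ± 12.4 CPM in LKO and 15.0 ± 8.25 CPM in control (log2 fold change 0.62, SE 0.43, 95% interval -0.32 to 1.56; edgeR adjusted p = 0.402). Without LKO 3 its log2 fold change was 0.29, and without control 4 it was 0.86 (edgeR adjusted p = 0.74 and 0.192). Ccn1 (NCBI Gene 16007), a matricellular protein gene of the same family that is also an immediate early gene and a target of YAP, had 20.0, 13.3, 9.2, 8.99 and 13.6 CPM in LKO 1 to 5. In control 1 to 5 it had 22.0, 13.1, 33.4, 26.2 and 9.4 CPM. The 3 highest libraries were controls and the 2 lowest were LKO 4 and LKO 3, but control 5 was as low as these. Ccn1 averaged 13.0 ± 4.49 CPM in LKO and 20.8 ± 9.73 CPM in control (log2 fold change -0.68, SE 0.33, 95% interval -1.41 to 0.06; edgeR adjusted p = 0.252). Its value stayed between -0.89 and -0.44 when single libraries were left out.

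The ratio of the counts of both CCN genes needs no scaling between libraries. On a log2 scale, Ccn2 over Ccn1 was -0.20, 0.12, 2.17, 0.44 and 1.14 in LKO 1 to 5, against -1.94, -0.20, -1.67, -0.09 and 1.28 in control 1 to 5. It averaged 0.73 ± 0.94 in LKO and -0.52 ± 1.31 in control (SD, n = 5 each). Counts of Ccn2 thus exceeded those of Ccn1 in 4 of 5 LKO libraries and in 1 of 5 control libraries, control 5, and the ranges overlapped. Ccn2 has 2774 exon bases and Ccn1 2019, so the ratio compares libraries and not the levels of these genes. Per kilobase of exon, Ccn2 stood above Ccn1 only in LKO 3, LKO 5 and control 5. The ratio was chosen after these values were seen and was not tested. In bulk RNA, fewer cells of a type and less RNA per cell cannot be told apart for any gene described here.

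**Figure D3:**
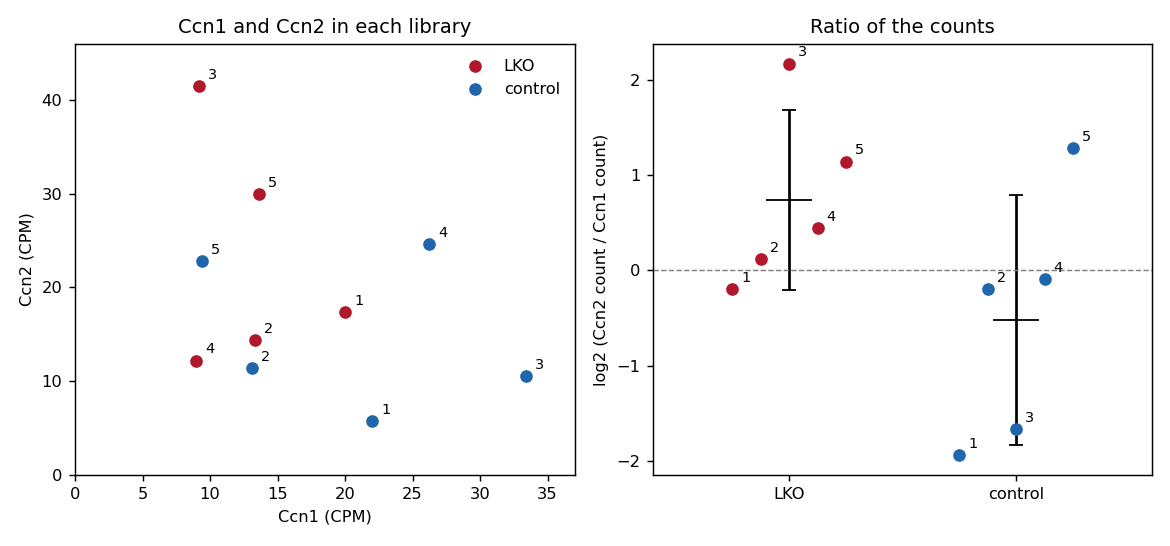
Left, CPM of Ccn2 (vertical) against CPM of Ccn1 (horizontal) in each library, LKO in red and control in blue, with replicate numbers. Right, log2 ratio of Ccn2 to Ccn1 counts by group, with bars for mean and SD. LKO 3 has 41.5 CPM of Ccn2 and 9.2 CPM of Ccn1, and control 3 has 10.5 and 33.4 CPM.

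Levels can be compared between genes only per length, here as CPM per kilobase of the union of exons in GENCODE's basic annotation of GRCm38. That build is not the GRCm39 of the counts, so these levels are approximate. In LKO the receptor Tgfbr1 stood highest at 11.2 ± 3.05, followed by Ccn2 at 8.33 ± 4.46, Tgfbr2 at 7.78 ± 0.724, Ccn1 at 6.45 ± 2.22, Smad3 at 4.85 ± 0.855, Tgfb1 at 4.58 ± 0.404 and Smad7 at 3.32 ± 0.695 CPM per kilobase. Tgfb3 and Tgfb2 came last at 0.911 ± 0.716 and 0.761 ± 0.494 CPM per kilobase in LKO. In control the order began with Ccn1 at 10.3 ± 4.82 and Tgfbr1 at 9.05 ± 1.42, and Tgfb1 stood at 3.35 ± 0.95, Tgfb2 at 0.386 ± 0.219 and Tgfb3 at 0.297 ± 0.114 CPM per kilobase. Neighbours in the LKO order had overlapping ranges apart from Tgfb1 over Smad7 and Smad7 over Tgfb3. In control only the steps from Tgfbr1 to Tgfbr2 and from Smad7 to Tgfb2 were without overlap. Tgfb1 was therefore the most abundant ligand transcript per length in both groups.

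Sample titles start with A54, A55 or A67, whose meaning is not stated. LKO 1, LKO 2 and control 1 share A54, and the other codes each belong to 1 group. Within A54, Tgfb3 stood at 1.88 and 1.88 CPM in LKO and at 0.415 CPM in control, Tgfb1 at 11.1 and 8.93 CPM in LKO and 6.3 CPM in control, and Ccn2 at 17.4 and 14.4 CPM in LKO and 5.74 CPM in control. The ratios of the LKO mean to the control were 4.54 for Tgfb3, 2.77 for Ccn2, 1.92 for Tgfb2, 1.59 for Tgfb1, 1.19 for Tgfbr2, 1.18 for Tgfbr1 and 1.17 for Smad7. Smad3 and Ccn1 had ratios of 0.958 and 0.755. With the code as a covariate, edgeR adjusted p-values of the 9 genes ran from 0.878 to 0.967.

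The wider pathway is described from lists ordered by role, each beside the background given above. Of the genes that store and activate latent TGF-beta, 15 of 16 were tested, 14 of them with a log2 fold change above 0, a median of 0.39, and 0 called (8 at an unadjusted edgeR p under 0.05, all higher). Thbs1, which encodes the activator thrombospondin 1, had 6.19, 6.83, 38.3, 11.9 and 16.3 CPM in LKO 1 to 5 and 1.93, 2.99, 3.51, 8.54 and 5.65 CPM in control 1 to 5. Only control 4 reached the LKO range of Thbs1 (log2 fold change 1.81, SE 0.54; edgeR adjusted p = 0.125). Emilin1, which holds back processing of the TGF-beta precursor, averaged 30.9 ± 10.5 CPM in LKO and 18.1 ± 4.14 CPM in control (edgeR adjusted p = 0.12). Nrros, which tethers latent TGF-beta on macrophages and microglia, averaged 6.7 ± 0.434 CPM in LKO and 5.1 ± 0.911 CPM in control (edgeR adjusted p = 0.139). Ltbp2, a latent TGF-beta binding protein homologue of elastic fibres, averaged 5.4 ± 7.03 CPM in LKO and 1.38 ± 0.917 CPM in control (edgeR adjusted p = 0.16), with LKO 3 at 17.9 CPM. Without control 4, edgeR called 5 genes of the list as higher, Emilin1, Thbs1 and Nrros among them. With all libraries DESeq2 called 3 and limma voom 5 of the list, all higher.

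Other receptors of the superfamily showed no common direction. Of 10 tested of 12, 6 had values above 0 and 4 did not, with a median of 0.02 and 0 called (edgeR; 1 lower at an unadjusted p under 0.05). DESeq2 called 1 as lower, and limma voom 1 as higher and 1 as lower. The gene lower in the edgeR test was Acvr2a, an activin type II receptor, with 26.0 to 30.0 CPM in LKO and 31.4 to 35.7 CPM in control. Its ranges were apart, but it did not pass with all libraries (log2 fold change -0.28, SE 0.07; edgeR adjusted p = 0.0999). Without control 4, edgeR called Acvr2a as lower (adjusted p = 0.0206) and Acvrl1 as higher (adjusted p = 0.0398). Acvrl1 and Eng, the endothelial type I receptor and co-receptor, stood at log2 fold changes of 0.36 and 0.21, and the BMP type I receptor gene Acvr1 at -0.18 (edgeR adjusted p = 0.236, 0.346 and 0.373). Among Smad transducers and regulators, 16 of 16 were tested, the median was 0.02 and 0 were called (edgeR; 3 higher and 1 lower at an unadjusted p under 0.05). DESeq2 and limma voom each called 1 of them as higher, as did edgeR without control 4. Bambi, which encodes a decoy receptor, averaged 3.88 ± 1.37 CPM in LKO and 2.26 ± 0.558 CPM in control (edgeR adjusted p = 0.137). The corepressor gene Tgif1 stood at 0.34, Zfyve9, whose product presents Smads to the receptor, at -0.20, and Smad9, of the BMP branch, at a log2 fold change of 0.61 (edgeR adjusted p = 0.177, 0.189 and 0.216).

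Activin, BMP and GDF ligands and their traps also had a median near 0, at -0.04, with 15 of 19 tested and 0 called (edgeR; 3 at an unadjusted p under 0.05, all lower). Inhbc, the hepatocyte inhibin beta C subunit gene, had 31.7, 27.0, 20.7, 32.0 and 36.0 CPM in LKO 1 to 5 and 41.4, 41.7, 42.1, 36.5 and 39.6 CPM in control 1 to 5. The groups were apart for Inhbc, by a narrow margin between LKO 5 and control 4 (log2 fold change -0.45, SE 0.13; edgeR adjusted p = 0.12). Bmp10, which encodes a ligand of the Acvrl1 receptor, averaged 1.55 ± 0.741 CPM in LKO and 3.05 ± 0.612 CPM in control (edgeR adjusted p = 0.173). Fst, which encodes the activin trap follistatin, stood at a log2 fold change of 0.87 (edgeR adjusted p = 0.327). Without control 4, edgeR called 2 of the list as lower, Inhbc among them, and with all libraries DESeq2 called 2 and limma voom 1 of the list as lower.

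Of 22 known TGF-beta targets 21 were tested, 17 with a log2 fold change above 0, a median of 0.62 and 0 called (edgeR; 8 higher and 2 lower at an unadjusted p under 0.05). Loxl2, a collagen cross-linking enzyme gene, averaged 19.4 ± 4.99 CPM in LKO and 10.7 ± 3.51 CPM in control (edgeR adjusted p = 0.106). Fibronectin (Fn1), which hepatocytes also secrete in quantity, had 1268 to 1828 CPM in LKO and 2184 to 2598 CPM in control, with no overlap (log2 fold change -0.70, SE 0.14; edgeR adjusted p = 0.0766). Bhlhe40, a stress and clock repressor gene, averaged 80.1 ± 11.3 CPM in LKO and 113 ± 12.1 CPM in control, also without overlap (edgeR adjusted p = 0.0977). Fn1 held most of the list's summed level, which was 1824 to 2403 CPM in LKO and 2739 to 2972 CPM in control, so the sum and the median of the list differ in direction. Ltbp2, described above, belongs to the targets as well. The median was 0.38 without LKO 3 and 0.81 without control 4, when edgeR called 11 as higher and 2 as lower. With all libraries DESeq2 called 1 as higher and limma voom 10, and each called 2 as lower. Of the 4 other CCN genes only Ccn4 passed the filter on low counts, with 2.94 ± 0.734 CPM in LKO and 2.02 ± 0.438 CPM in control (edgeR adjusted p = 0.183).

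**Figure D4:**
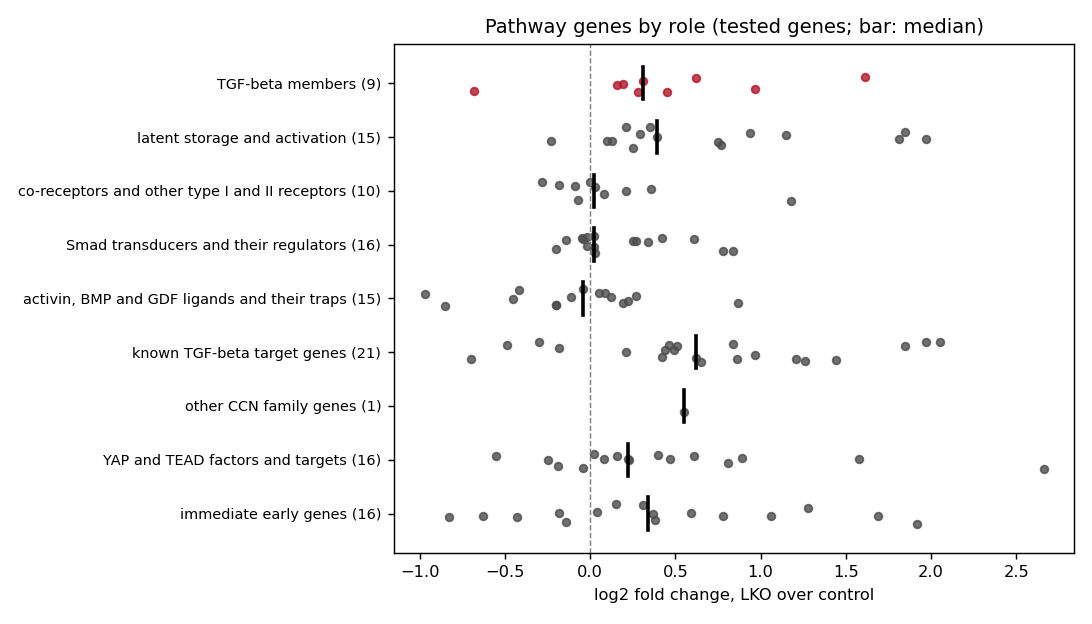
Log2 fold change of LKO over control (horizontal axis) for each tested gene of the 9 members (red, top) and of 8 lists of related genes (grey), with the number tested in brackets and black bars at the medians. The target list has a median of 0.62, and the other receptors, the Smad regulators and the activin and BMP list have medians of 0.02, 0.02 and -0.04.

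YAP and TEAD factors, which bind at CCN genes, and their other targets had a median of 0.22, with 16 of 16 tested and 0 called (edgeR; 6 at an unadjusted p under 0.05, all higher). Gadd45b averaged 3.04 ± 1.44 CPM in LKO and 1.02 ± 0.662 CPM in control, and Amotl1, of the angiomotin family, averaged 35.3 ± 5.12 CPM in LKO and 26.8 ± 2.35 CPM in control (edgeR adjusted p = 0.106 each). Ankrd1, a cardiac and stress-induced ankyrin gene, averaged 1.61 ± 2.04 CPM in LKO and 0.249 ± 0.222 CPM in control, and the receptor kinase gene Axl 47.7 ± 9.25 CPM in LKO and 31.2 ± 12.0 CPM in control (edgeR adjusted p = 0.145 and 0.158). Immediate early genes, the class Ccn1 belongs to, had a median of 0.34 with 16 of 18 tested and 0 called (edgeR; 7 higher and 1 lower at an unadjusted p under 0.05). With the title code as a covariate the median was -0.16. Egr2 averaged 2.63 ± 0.9 CPM in LKO and 0.814 ± 0.574 CPM in control, and the stress factor gene Atf3 7.54 ± 4.1 CPM in LKO and 1.99 ± 1.74 CPM in control (edgeR adjusted p = 0.0978 and 0.106). Fosl2 and Jund, both of AP-1, stood at log2 fold changes of 0.59 and 0.38 (edgeR adjusted p = 0.126 and 0.137). Of the 16, 5 had values below 0, as Ccn1 did. Without control 4, edgeR called 6 genes of the YAP and TEAD list and 4 of the immediate early list, all higher. With all libraries DESeq2 called 3 and 5 of these lists, and limma voom 5 and 6, all higher.

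Summed markers of macrophages, stellate cells and cholangiocytes were each highest within their group in LKO 3 and in control 4. Summed macrophage markers, all 12 tested and 10 with values above 0, had 377 to 620 CPM in LKO (LKO 3 highest) and 226 to 458 CPM in control, where control 4 had 458 CPM and the other controls at most 276 CPM. Lyz2 averaged 118 ± 39.3 CPM in LKO and 47.5 ± 25.6 CPM in control (edgeR adjusted p = 0.0977). Adgre1, Cd68 and Itgam stood at log2 fold changes of 0.62, 0.76 and 0.86 (edgeR adjusted p up to 0.147 for Itgam). The macrophage markers below 0 were Timd4 and Clec4f, at -0.23 and -0.03 (edgeR adjusted p = 0.736 and 0.952). Summed stellate cell markers, 12 tested and 10 with values above 0, had 562 to 846 CPM in LKO and 468 to 759 CPM in control, where the controls other than control 4 had at most 567 CPM. Dcn, Des, Pdgfra and Pdgfrb stood at log2 fold changes of 0.70, 0.59, 1.33 and 0.84 (edgeR adjusted p = 0.124 for Dcn to 0.156 for Pdgfrb). Pdgfra had 88.3 CPM in LKO 3 and at most 32.5 CPM in the other LKO libraries. The stellate cell markers below 0 were Vipr1 and Ecm1, at -0.32 and -0.35 (edgeR adjusted p = 0.321 and 0.349). Cholangiocyte markers, 8 tested and 7 with values above 0, summed to 41.2 to 391 CPM in LKO and 37.3 to 176 CPM in control, with LKO 3 and control 4 at the upper ends. Most of the sums in LKO 3 and control 4 was Spp1, which reached 316 CPM in LKO and 145 CPM in control. Of these, Epcam, Krt7, Cftr and Krt19 stood at log2 fold changes of 2.16, 1.44, 2.38 and 1.79 (edgeR adjusted p = 0.18 to 0.212). For each of these genes only LKO 3 and LKO 5 lay above every control, and the other LKO libraries did not. Krt19 had 6.04 CPM in LKO 3 and 3.46 CPM in LKO 5. It had at most 0.765 CPM in the other LKO libraries and at most 1.19 CPM in control. With the title code as a covariate the cholangiocyte median was -0.06, against 1.43 without it. Their part in the values of Tgfb1, Tgfb2, Tgfb3 and Ccn2 was not tested.

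Endothelial markers, 10 of 10 with values above 0, summed to 413 to 638 CPM in LKO and 409 to 478 CPM in control, and Pecam1, Cdh5, Stab1 and Tie1 stood at log2 fold changes of 0.37, 0.34, 0.38 and 0.29 (edgeR adjusted p = 0.0977 to 0.14). Here control 4, at 415 CPM, and LKO 3, at 413 CPM, were low. Hepatocyte markers, 0 of 10 with values above 0, summed to 47002 to 63735 CPM in LKO and 52904 to 76768 CPM in control, lowest in LKO 3 and control 4. Ttr, Hnf4a, Tat and Cps1 stood at -0.48, -0.21, -0.56 and -0.49 (edgeR adjusted p = 0.194 to 0.352). Markers of platelets, a known store of TGF-beta 1, were low, with sums of 4.73 to 5.81 CPM in LKO and 3.97 to 4.82 CPM in control. Pf4, Itga2b, Ppbp and Gp1ba, the 4 tested of 6, stood at 1.28, 0.16, 0.18 and 0.00 (edgeR adjusted p = 0.143 to 0.998). Mesothelial markers, 5 of 6 with values above 0, summed to 176 to 301 CPM in LKO and 125 to 241 CPM in control, most of it Krt8, which other epithelia express as well. Krt8, Wt1, Gpm6a and Upk3b stood at 0.60, 1.33, 0.66 and 0.24 (edgeR adjusted p = 0.148 to 0.734). Lymphocyte markers summed to 3.58 to 7.84 CPM in LKO and 3.65 to 7.1 CPM in control, with 6 of 8 tested and Cd8a, Cd4, Cd3e and Nkg7 at 1.17, -0.81, 0.64 and 0.59 (edgeR adjusted p = 0.165 to 0.583). No listed marker lacked counts in all libraries and none was called by edgeR with all libraries. Without control 4, the fit in which edgeR called 4 of the TGF-beta genes, it also called markers of other cells. Higher were 9 macrophage, 4 stellate, 4 endothelial, 1 cholangiocyte and 1 mesothelial markers, and lower was 1 hepatocyte marker. That fit called 10.2% of all genes as higher and 4.75% as lower. The cholangiocyte marker was Spp1 and the mesothelial one Krt8 (edgeR adjusted p = 0.0453 and 0.0142). Epcam, Krt7, Cftr and Krt19 were not called (edgeR adjusted p = 0.0689 to 0.115), nor was Wt1 (edgeR adjusted p = 0.115). At an unadjusted edgeR p under 0.05 there were 6 stellate, 6 macrophage, 5 endothelial, 4 cholangiocyte, 2 mesothelial, 1 platelet and 1 lymphocyte markers higher. Lower at that level were 1 hepatocyte and 1 lymphocyte markers. Of all genes tested, 12.8% were higher and 9.5% lower at that level. DESeq2 called 3 stellate, 3 macrophage, 3 endothelial and 1 platelet markers, all higher, beside 4.17% of all genes higher and 3.26% lower. Limma voom called 4 stellate, 9 macrophage, 5 endothelial, 1 platelet and 1 mesothelial markers as higher, and 2 hepatocyte and 1 lymphocyte markers as lower. Its shares over all genes were 10% higher and 6.11% lower. The part of these cells in the members' values was not tested.

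The genes most like each member were found by Pearson's r of log2 CPM over the 10 libraries among 12960 named genes of at least 1 CPM, as a description that both groups and the libraries that stand apart shape. For Tgfb1 they were Arhgef7, B4galt4 and Psd4 (r of 0.976, 0.967 and 0.952). For Tgfb2 they were Ehd2, Col6a3 and Olfml3 (0.992, 0.992 and 0.991), and for Tgfb3 Synpo2, Ndrg1 and Gpx8 (0.975, 0.974 and 0.969). Tgfbr1 was matched by Gm20559, Antxr1 and Cacna2d1 (0.988, 0.985 and 0.985), and Tgfbr2 by Ncapd2, Gpsm3 and Rab3il1 (0.961, 0.952 and 0.946). Smad3 was matched by Phtf1, Il17rd and Tspan9 (0.958, 0.958 and 0.946). Smad7 was closest to the other inhibitory Smad gene, Smad6, then Dhx34 and the ligand gene Bmp6 (0.941, 0.922 and 0.908). Ccn2 was closest to Naalad2, Zfp788 and Gmds (0.973, 0.957 and 0.948), and Ccn1 to Epha1, Abca2 and Tcea3 (0.922, 0.904 and 0.901). No pair of members shared any of the genes named here. Only the 3 closest genes per member are named, so this says little about whether members vary alike.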

How the data were processed

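The authors deposited a table of raw read counts per gene and library, with genes given as NCBI Gene numbers. Per the submitters' processing notes, bcl2fastq 2.20, DESeq2 and build GRCm39 were used. Which aligner, counter, strand setting and annotation were used is unknown from these sources. Per the labels' protocols, RNA from frozen liver was depleted of ribosomal RNA, made into stranded libraries and read from 1 end. Symbols came from a RefSeq table of GRCm38.p6, which matched 25275 of 27179 genes, and genes without a symbol held 0.693% of counts. In that table Tgfb2, Tgfbr1, Tgfbr2, Smad3, Smad7 and Ccn2 overlap noncoding genes, and the treatment of overlaps in counting is unknown. All 10 columns were matched by title, and 0 were left out. Every pair of libraries within a group differed by more than sampling noise, with a chi-square per degree of freedom of at least 32.1.

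The test was edgeR 4.0.16 in R 4.3.3 (filterByExpr, TMM, quasi-likelihood F test with the legacy option, two-sided, genotype as the only term), adjusted by Benjamini-Hochberg over 15226 genes at 0.05. Each 95% interval used the standard error implied by the F statistic. The member genes, lists and tests were chosen with earlier results of these data known, so no p is adjusted over a list and no list is tested as a set. Each list named its 4 genes with the smallest p. One of these is not reported here. Alternatives were other scalings and filters, DESeq2 1.42.0, limma 3.58.1 voom, robust dispersion, a replicate block, a title-code covariate and fits without single libraries. Depth limits Tgfb3 most, where 3 counts equal 0.0698 CPM in control 5 and 0.113 CPM in control 1. The test was checked on simulated counts. Figures were drawn with matplotlib 3.10.9.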

Additional observations from a re-analysis of the deposited data

Results flagged for a closer look

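Single libraries stood apart from the other 4 of their group in 24 of 140 groups of values examined, by the gap to the nearest library relative to the range of the group. For normally distributed values chance flags about 1 in 20 groups, and CPM need not be distributed so. Many of these genes also share the same libraries, so the flags are not independent.

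Among the TGF-beta genes, Tgfb1 in control 4 had 10.9 CPM (other controls 6.04 to 6.92) and Tgfb2 in control 4 had 4.0 CPM (other controls 1.32 to 1.91). In LKO 3, Tgfb3 had 7.41 CPM (other LKO 1.88 to 2.25) and Tgfbr1 had 106 CPM (other LKO 58.2 to 71.7). Smad7 was low in control 5, at 8.0 CPM (other controls 12.8 to 14.5).

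In LKO 3, Ltbp2 stood at 17.9 CPM, Fst at 9.01, Pdgfra at 88.3, Itgam at 8.34 and Pf4 at 0.883 CPM, all above the other LKO libraries, and Bhlhe40 at 60.7 CPM lay below them. Cps1 was low in LKO 5, at 918 CPM (other LKO 1808 to 2098). In control 4, Ltbp2 stood at 2.97, Acvrl1 at 7.8, Fst at 3.09, Gadd45b at 2.19, Axl at 52.0, Egr2 at 1.84, Atf3 at 5.09, Dcn at 246, Pdgfra at 20.3, Pdgfrb at 24.9, Lyz2 at 92.7 and Epcam at 3.32 CPM, all above the other controls. Causes were not tested.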

How the results depend on the processing

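The number of genes called over the whole table moved with the setting. It was 10 in the main edgeR test, 31 with every gene that had a count, 20 with at least 1 CPM in 5 libraries, 1143 with DESeq2, 2460 with limma voom and quality weights, 2 with the replicate block and 0 with the title code as a covariate. With the code, the estimate rests on 2 LKO and 1 control libraries. Leaving out 1 library gave 2 to 2296 genes (2296 without control 4, 86 without LKO 1, 11 without LKO 3 and 2 to 5 without any other), and leaving out control 4 and LKO 3 together gave 2363. Of the 9 TGF-beta genes, 0 were called in the main test, 1 with DESeq2, 3 with limma voom, 4 without control 4 and LKO 3 together, and 0 to 4 with 1 library left out, the 4 without control 4. With the title code Smad3 turned to -0.06, and the list medians turned to -0.16 for immediate early genes, -0.06 for cholangiocyte markers and -0.05 for lymphocyte markers. The cause was not tested. The lymphocyte median was also -0.79 with at least 1 CPM in 5 libraries and -0.18 without control 4 and LKO 3. The medians of the other receptors, the Smad regulators and the activin and BMP list lay near 0, and each changed sign in at least 1 alternative. All other member fold changes kept their sign in all 20 alternatives. Scaling to library totals moved the median of all genes to 0.235, and no member changed direction. The titles do not say whether equal replicate numbers pair mice. Same-numbered deviations correlated from -0.40 to 0.42, which cannot settle it. Only for replicate 1, whose libraries share A54, was this value above those with other numbers (0.42 against at most 0.29). With the replicate block Tgfb3 stood at 1.45 (edgeR adjusted p = 0.17), and 0 members were called.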
